A study of Caenorhabditis elegans with 5 samples.

Results

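Binding regions of PHA-4 on the X chromosome of *Caenorhabditis elegans* are described here. They were chosen by position alone: every region that the deposited lists place on X belongs to the set. The combined list, which by its name joins both replicates, held 1395 such regions of 7745 in all. The replicate 1 list held 765 of 4077, and the replicate 2 list 998 of 5335. They are set against the autosomes II to V, which held 4693 combined regions, 2582 in replicate 1 and 3353 in replicate 2.

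The worms were L2 hermaphrodites of strain OP37, grown at 20 °C on HB101 bacteria and crosslinked with 2% formaldehyde. Every library, inputs included, came from this strain, which carries unc-119(ed3) III and the array wgIs37. That array holds unc-119(+) as the rescuing gene and a fusion, pha-4::TY1::EGFP::3xFLAG. The fusion was precipitated with goat antibodies against EGFP in 3 libraries, 1 of replicate 1 and 2 of replicate 2, and 2 input libraries, both numbered replicate 1, hold DNA that was not precipitated. The array was made by bombardment, and the labels name no change to the worm's own pha-4 and no strain without the tag. Whole larvae were used, so fewer cells with binding and less binding per cell cannot be told apart. Whether the replicates came from separate cultures is not stated, so the spread between them may be technical only.

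PHA-4 is the worm's FoxA protein, a winged-helix transcription factor known for specifying the cells of the pharynx and also present in the intestine. The X chromosome is the sex chromosome: hermaphrodites carry a pair and males a single copy, and in hermaphrodite somatic cells a dosage compensation complex binds X and lowers its transcription. In the germ line most X genes are kept silent. On the autosomes, conserved genes crowd the recombination-poor centre and thin out along the arms, whereas genes are spread more evenly along X.

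PeakSeq gave every region its boundaries and a q-value; the program compares precipitated with control reads. The score used here is −log10 of that q-value, so a higher score means stronger evidence for enrichment, not a higher level of binding. Coordinates are on WormBase WS190. The lists hold no read counts, so sequencing depth is unknown. Neither genes nor DNA sequence at the regions were examined, as no genome or annotation of WS190 was used here.

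The strongest replicated regions on X were wide and scattered along the chromosome. The region with the lowest q of the whole combined list lay on X, at 16929310 to 16932042. It was 2733 bp wide, with a combined q of 7.26e-193, a replicate 1 q of 7.22e-35 and a replicate 2 q of 9.58e-171. Its scores in the replicates were thus far apart, 34.1 and 170, and it stood at place 12 among X regions in replicate 1 and at place 1 in replicate 2. The second X region, at 6844003 to 6846470 (2468 bp), had a combined q of 8.85e-130. Its q-values were almost equal in both replicates, 5.53e-65 in replicate 1 and 1.83e-64 in replicate 2.

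The third, at 1503509 to 1505228 (1720 bp), had a combined q of 4.70e-112, with 3.19e-40 in replicate 1 and 8.80e-76 in replicate 2. The fourth, at 15334805 to 15335636, was only 832 bp wide at a nearly identical combined q of 4.76e-112 (2.61e-63 in replicate 1 and 1.24e-51 in replicate 2). The fifth, at 14559129 to 14560737 (1609 bp), had a combined q of 2.42e-101, with 8.35e-65 and 2.24e-48 in replicates 1 and 2. Strong evidence was therefore found both in broad regions and in regions under 1 kb. The sixth, at 16130745 to 16131570 (826 bp, combined q 4.74e-84), scored 43.0 in replicate 1 and 41.8 in replicate 2.

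The remaining 9 of the 15 strongest replicated X regions had combined scores of 57.0 to 71.2. In order of score they began at 11480738, 6749010, 3818299, 11030882, 3833848, 4711746, 5840512, 10568233 and 16352336. Replicate 1 gave these 9 regions scores of 28.5 to 36.6 and replicate 2 scores of 23.0 to 39.5. Over all 15 regions, 11 scored higher in replicate 1 and 4 in replicate 2. Every one stood among the best 22 X regions of replicate 1 and the best 31 of replicate 2. The 15 best X regions by combined q, with no condition on replication, were the same 15. The combined list is not independent of the replicate lists. As sequencing depth is unknown, differences in score between the lists cannot be read as differences in binding.

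Widths of these 15 regions ran from 550 to 2805 bp with a median of 1089 bp, and 8 were 1 kb or wider. Most had another combined region close by. The gap to the nearest neighbour ran from 310 to 7086 bp with a median of 1393 bp. With the combined list divided into 4 equal groups by q, that median was similar, 1522 bp, over all 321 X regions of the strongest group. In the weakest group it was 2704.5 bp. The rise was not steady: counted from the strongest, it was 2247 bp in group 2 and 1926 bp in group 3. The strongest region of all had a neighbour 310 bp to its right and none for 27157 bp to its left. The region at 6749010 to 6750676 was flanked on both sides, at 546 and 555 bp.

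Among all chromosomes, X held close to its share of the list among strong regions. Of the 100 best combined regions 19 lay on X (95% exact Clopper-Pearson interval 11.8 to 28.1%), as did 23 of the 100 best of replicate 1 (15.2 to 32.5%) and 19 of the 100 best of replicate 2 (11.8 to 28.1%). The intervals cover counting error only. Over the full lists X held 18.01% of combined, 18.8% of replicate 1 and 18.7% of replicate 2 regions, all of which lie inside those intervals. These shares include chromosome I. Counted among X and II to V alone, X held 30.0% of the combined regions that were in the best 50, 28.4% of those in the best 100 and 25.9% of those in the best 500, against 22.9% of the full list. In the best 100 the share was 27.7% in replicate 1 and 23.5% in replicate 2, against 22.9% of each full list. These shares were not tested.

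Replication of X regions was close to that elsewhere. Of the 1395 combined X regions, 595 overlapped both replicate lists by at least 1 bp, or 42.7% (exact interval 40.04 to 45.3), against 41.2% of all combined regions. The share ran from 40.3% to 45.3% over the autosomes II to V. A further 155 X regions (11.1%) overlapped replicate 1 alone and 327 (23.4%) replicate 2 alone. The other 318 (22.8%) overlapped neither list, against 25.7% of all combined regions and 20.7 to 24.3% over II to V. The shares of all combined regions include chromosome I, where 35.7% overlapped both lists and 37.0% neither. In each class the X share thus lay inside the range over II to V.

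Differences between X and the autosomes were tested with an exact permutation test in which the chromosome is the unit. With X and 4 autosomes the smallest p this test allows is 0.2, so no difference could pass a threshold of 0.05. For the share present in both replicates the exact permutation p was 1.

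Read from the replicate lists, 600 of the 765 replicate 1 regions on X (78.4%) overlapped a replicate 2 region, against 79.4% of all replicate 1 regions. In the other direction 605 of 998 (60.6%) did so, against 61.0% of all replicate 2 regions. The autosomes II to V ran from 76.3 to 81.3% and from 58.9 to 64.2%. X lay inside both ranges.

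Regions on X that were found in both replicates were stronger and wider than the others. Among those 595 the median combined q was 6.07e-12, the median width was 523 bp, and 0 were narrower than 100 bp. The 155 shared with replicate 1 alone had a median q of 6.71e-05 and a width of 365 bp. The 327 shared with replicate 2 alone had 2.69e-04 and 336 bp. Strength and width thus fell together across these classes. The 318 absent from both replicate lists were weakest, at a median q of 0.00307, and narrowest, at 268 bp; 48 (15.1%) spanned less than 100 bp. The same order was found over II to V, so it was not particular to X. Median widths there were 472, 333.5, 320 and 239 bp, and median q-values rose from 3.34e-12 to 0.00295. The combined q-values rest on the same replicates, so these classes and their strength are not independent.

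Each list was divided into 4 equal groups by q over all chromosomes, so that regions on different chromosomes can be compared at similar strength. In the strongest group of the combined list, 320 of 321 X regions (99.7%) overlapped both replicates. The share was 72.8% in the second group, 9.97% in the third and 0.259% in the weakest. Over II to V the strongest group ran from 97.5 to 99.7% and the second from 62.4 to 69.0%, so X stood above the other chromosomes in the second group (exact permutation p = 0.4). The groups were defined on combined q-values, which rest on the same replicates. Among replicate 1 regions grouped by their own q, 97.9% of the strongest and 54.2% of the weakest X regions had a partner. The corresponding shares in replicate 2 were 97.2% and 23.0%. X was lowest of the 5 chromosomes in the weakest group of both replicate lists, below autosomal ranges of 55.6 to 58.2% in replicate 1 and 25.9 to 30.8% in replicate 2 (exact permutation p = 0.2 for each).

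**Figure D1:**
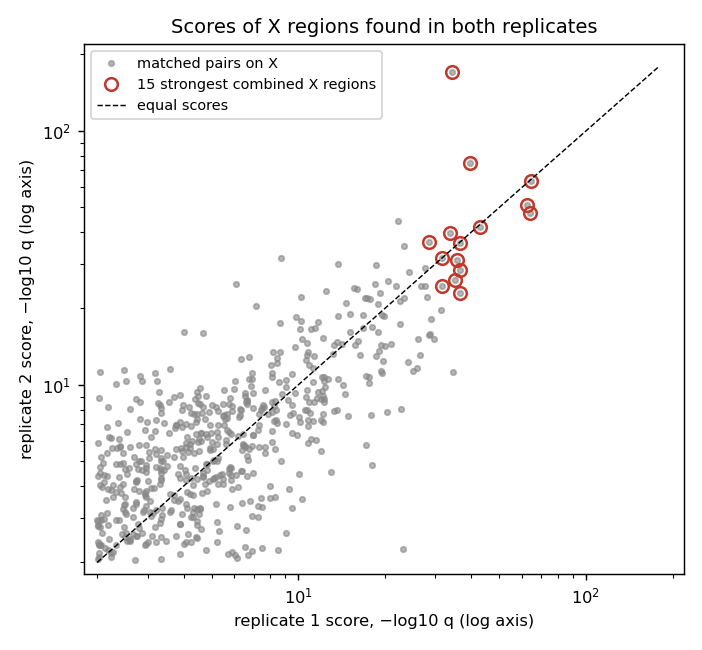
Scores (−log10 q, both axes logarithmic) of the 596 X regions matched between replicates 1 and 2, with the 15 strongest combined X regions ringed and a dashed line of equal scores. The point at the top, with scores of 34.1 and 170, is the strongest X region and lies far above the line.

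Matched regions on X resembled each other in score and position. Over the 596 pairs that were each other's longest overlap, Spearman's rho between scores was 0.667 and Pearson's r was 0.701. These are descriptions across regions of the same chromosome, which are not independent, so no p is given. Without the strongest region, at 16929310, Pearson's r was 0.818 and Spearman's rho 0.665. By ratio another pair lay further from equal scores: the replicate 1 region at 15274961, inside the second widest combined region, scored 23.2 against 2.26 in replicate 2. Across II to V rho ran from 0.563 to 0.675. Midpoints of the X pairs lay a median of 36 bp apart, slightly further than the 27.5 to 35.5 bp over II to V. On X 375 pairs (62.9%) lay within 50 bp, near the low end of the 62.5 to 71.0% over II to V. Of the X pairs 342 (57.4%) scored higher in replicate 2, against 56.4 to 59.4% over II to V.

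On X the combined list mostly kept replicate regions as single units. Among combined X regions, 743 overlapped exactly 1 replicate 1 region and 7 overlapped more than 1. For replicate 2 the numbers were 901 and 21. Few replicate regions on X were missing from it: 11 of 765 from replicate 1 and 57 of 998 from replicate 2 had no combined counterpart. Over all chromosomes 49 of 4077 and 298 of 5335 had none. All the missing X regions were weak, with lowest q-values of 0.00132 and 7.65e-04, and their median widths were 46 bp and 146 bp. On II to V the lowest q-values of missing regions were 6.08e-116 in replicate 1 and 4.22e-152 in replicate 2.

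A few strong X regions were seen in a single replicate. In the strongest score group of each replicate list, 4 of 192 X regions of replicate 1 and 7 of 250 of replicate 2 had no partner. The shares with a partner were thus close to those on II to V. They were 97.9% on X and 98.6% on II to V in replicate 1, and 97.2% and 95.8% in replicate 2. In replicate 1 the strongest without a partner lay at 3902281 to 3902768 (q 6.33e-09), at place 175 among X regions. It was followed by 2852323 to 2853054 (q 6.37e-09) and 3796768 to 3797280 (q 8.11e-09). In replicate 2 the strongest lay at 6789020 to 6789571 (q 9.16e-10), at place 152. The next was at 4853051 to 4853483 (q 1.46e-09). The third, at 6790673 to 6791208 (q 1.85e-09), lay close beside the first. From that pair the nearest replicate 1 region was 13304 bp away. For the strongest in replicate 1 the nearest replicate 2 region was 638 bp away, a weak one with q 0.00814. All 6 belonged to the strongest score group of their own list and overlapped a combined region, with combined q-values from 1.76e-11 to 4.12e-07.

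X regions had a higher median width than those of each of II to V in every list. The median width on X was 397 bp in the combined list (interquartile range 289 to 563.5), against medians of 360 to 370 bp over II to V. In replicate 1 it was 432 bp against 361 to 385 bp, and in replicate 2 it was 380 bp against 345 to 355 bp. The mean over the autosomes was 364 ± 4.50 bp (SD over 4 chromosomes) in the combined list, so X exceeded it by 33.3 bp. The X median lay outside the autosomal range in all 3 lists (exact permutation p = 0.2 each, the smallest possible; adjusted over the 7 main tests, exact p = 0.467 for the combined list). The combined list rests on the same libraries as the others, and whether the replicates share an input is not given, so these are not 3 separate tests.

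Regions of 1 kb or more were more frequent on X. Of the combined X regions, 99 were 1 kb or wider, 7.10% (exact interval 5.81 to 8.57), against 4.09 to 5.83% over II to V. In replicate 1 the share was 8.10% against 3.97 to 6.04%, and in replicate 2 it was 5.71% against 3.18 to 4.77%. X had the highest share in each list (exact permutation p = 0.2 each). Regions from 1 to 2 kb made up 5.95% of those on X and 3.90% of those on II to V in the combined list, and regions from 500 bp to under 1 kb made up 24.7% and 21.6%. Regions of 2 kb or more were not more frequent in every list. They made up 1.15% on X and 1.02% on II to V in the combined list, 1.05% and 1.12% in replicate 1, and 0.601% and 0.895% in replicate 2. At the other end, 62 combined X regions (4.44%) were under 100 bp, against 5.64 to 6.57% over II to V. In replicate 1 this share was higher on X (1.31%, against 0.661 to 1.18%), and in replicate 2 X lay inside the range (4.91%, 3.79 to 6.14%).

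Stronger regions are also wider, with Spearman's rho between width and score of 0.643 on X in the combined list and 0.614 to 0.675 over II to V. Width was therefore compared within the score groups. The median width in the strongest group was 601 bp on X against 534 to 544 bp, and in the second group 440 bp against 373 to 401 bp. It was 337 bp against 298.5 to 337.5 bp in the third and 280.5 bp against 217 to 260 bp in the weakest. X thus had the highest median in each group except the third, where II had 337.5 bp. In replicate 1, X was highest in all 4 groups, with 620.5 bp against 468.5 to 535 bp in the strongest. In replicate 2 it was also highest in all 4, with 533 bp against 478 to 521 bp in the strongest and 252.5 bp against 224.5 to 251.5 bp in the weakest. The median score on X was not higher: 4.83 in the combined list, below the 4.97 to 5.46 of II to V (exact permutation p = 0.4), and inside the autosomal range in both replicate lists.

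**Figure D2:**
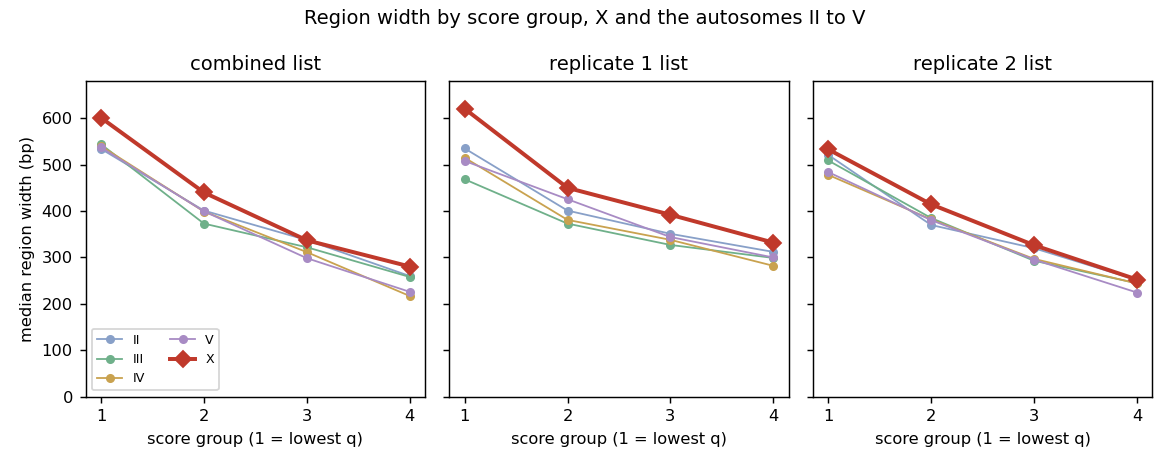
Median region width in bp (linear axis from 0) by score group, from the lowest q (group 1) to the highest (group 4), for X and the autosomes II to V in each list. X is the upper line in every group except group 3 of the combined list, with 601 bp in group 1 of the combined list and 620.5 bp in that of replicate 1.

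The widest combined X region ran from 6740007 to 6745761, 5755 bp, with q 5.14e-47. It spanned 2 regions in each replicate, the best with q 6.91e-11 in replicate 1 and 2.26e-17 in replicate 2. The next, at 15273648 to 15277242 (3595 bp, q 1.61e-55), spanned 2 regions of replicate 1 and 3 of replicate 2, with lowest q-values of 6.64e-24 and 9.56e-09. The third, at 3818299 to 3821103 (2805 bp), is also among the 15 strongest. In replicate 1 it was a single region of 2751 bp, whereas 2 replicate 2 regions lay within it. Each of the 3 widest thus spanned more than 1 region in at least 1 replicate list. All 16 X regions of 2 kb or more overlapped both replicate lists, as did 73 of the 83 between 1 and 2 kb. These wide regions were also strong, with median q-values of 3.80e-28 and 3.38e-16. Overlap of wide regions was not counted on II to V, so these shares are not a comparison.

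Regions lay along X more evenly than along each of II to V. In fixed bins of 1 Mb, with regions placed by their midpoints, the 17 full bins of X held 47 to 100 combined regions with a median of 82 and a mean of 78.8 ± 14.1 (SD). The emptiest bins were the second (47 regions), the first (57) and the eleventh (63), counted from the left end. The fullest were the seventeenth (100), the seventh (99) and the thirteenth (92). Low and high bins thus differed by a factor of 2.13. On II to V the fullest bin exceeded the emptiest by factors of 2.13 (III) to 3.76 (IV).

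The variance-to-mean ratio of the bin counts, which is 1 on average for regions placed evenly and independently, was 2.51 on X. It was 3.98 on III, 6.84 on IV, 9.25 on II and 9.92 on V. X was also lowest in replicate 1, at 2.12 against 3.48 to 9.35, and in replicate 2, at 1.75 against 2.97 to 7.59. For the combined list the exact permutation p was 0.2 (adjusted exact p = 0.467); for replicates 1 and 2 it was 0.4 and 0.2. X was again lowest when the combined list was limited to regions seen in both replicates, at 1.50 against 2.57 to 7.03 (exact permutation p = 0.2). In the strongest score group it was 1.39 on X against 1.89 to 6.00 (exact permutation p = 0.4). Regions present in neither replicate list differed from this, with 1.47 on X inside a range of 1.03 to 2.14.

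**Figure D3:**
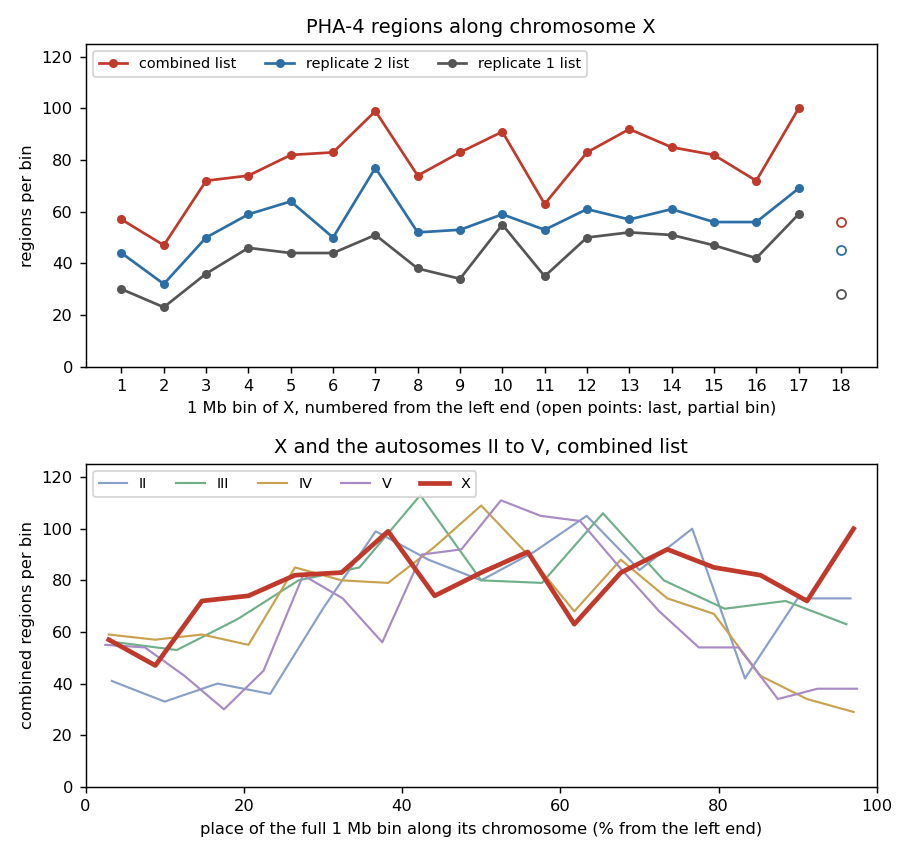
Upper panel, regions per 1 Mb bin of X (bins numbered from the left end) in each list, with open points for the last, partial bin; lower panel, combined regions per full bin against the place of the bin along its chromosome, for X and II to V. Among the full bins of X, combined counts are lowest in the first bins (57 and 47) and highest in the seventeenth (100) and the seventh (99), with no steady rise between them. The fullest bins of II to V lie away from their ends.

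The profile of X differed from that of the autosomes in shape as well. On X the first 5 full bins held 332 combined regions, the middle 5 held 410 and the last 5 held 431. On each autosome the middle 5 bins held the most, with 463 against 219 and 372 on II, 463 against 339 and 390 on III, 439 against 315 and 246 on IV, and 501 against 227 and 218 on V. The sets of 5 bins share a bin on III, which has 13 full bins, and were chosen with these counts known. The order on X was the same in replicate 1 (179, 213 and 251) and in replicate 2 (249, 294 and 299). In both replicate lists each autosome again held the most in its middle bins. The right end of X was as dense as the chromosome as a whole: its last, partial bin of 714629 bp held 56 regions, or 78.4 per Mb.

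Dense and sparse bins of X were largely alike in the replicates. The second bin was the emptiest in each, with 23 replicate 1 and 32 replicate 2 regions. The seventeenth was the fullest in replicate 1 (59) and the seventh in replicate 2 (77). Over the 17 bins Spearman's rho between the replicate counts was 0.802 and Pearson's r 0.826, a description of bins of 1 chromosome. The ninth bin was an exception: it held 83 combined regions but only 34 in replicate 1 and 53 in replicate 2, and 31 of its combined regions overlapped neither list, the most of any bin. Its median score was 3.32, the lowest on X. The share present in both replicates was highest in the fourth bin (50.0% of 74) and lowest in the third (36.1% of 72). Its mean over the 17 full bins was 42.6% with an SD of 4.19 points, and differences between bins were not tested.

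Combined regions of 1 kb or more had a variance-to-mean ratio of 1.11 over the 17 full bins. With a mean of only 5.71 such regions per bin, this ratio can lie near 1 even where the spread is uneven. It therefore does not show that broad regions were spread more evenly than all combined X regions, at 2.51. The seventh bin held 11 combined regions of 1 kb or more and the twelfth held 9, whereas the first and the third held 2 each. The seventh bin also had the most sequence covered, 58068 bp, against a median of 38545 bp per full bin.

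**Figure D4:**
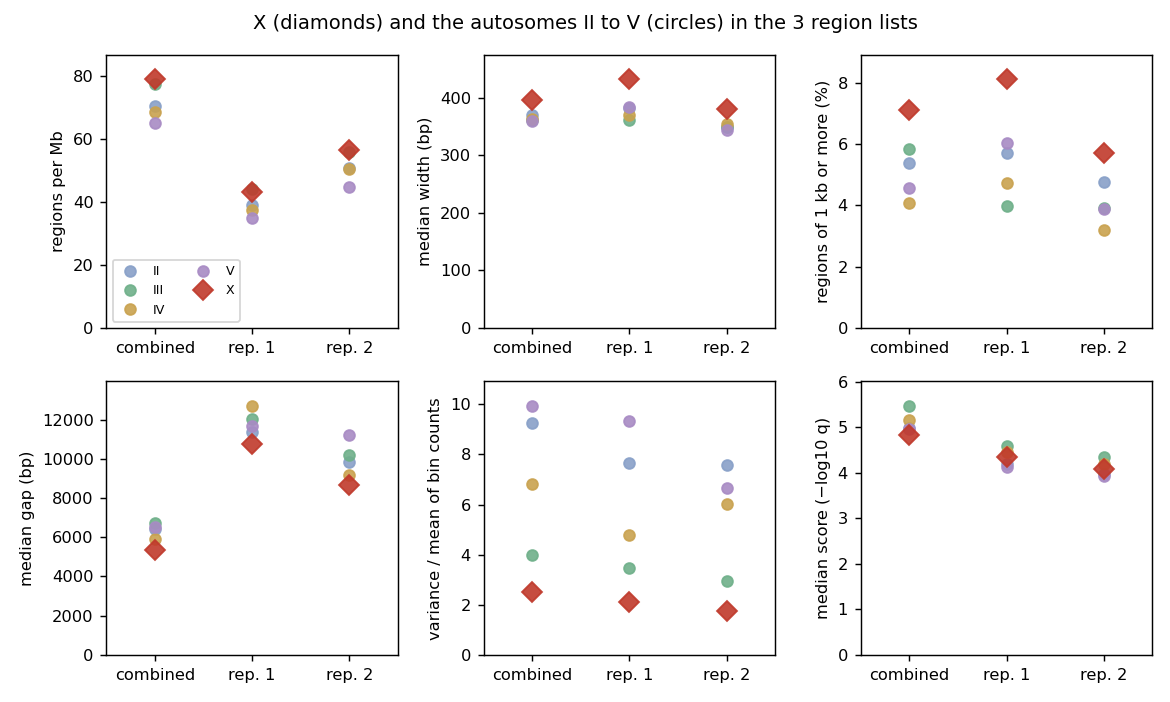
Measures for X (diamonds) and each of II to V (circles) in the 3 lists; each point is 1 chromosome and all axes start at 0. X stands above the others in median width and in the share of regions of 1 kb or more, and below them in the variance-to-mean ratio, in every list.

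X was about as densely occupied as the densest of these autosomes. It held 78.7 combined regions per Mb, against 64.8 on V to 77.2 on III (autosomal mean 70.3 ± 5.18, SD over 4 chromosomes; exact permutation p = 0.4). In replicate 1 it held 43.2 per Mb, inside the range of 34.8 to 43.9, and in replicate 2 it held 56.3, above 44.5 to 55.6. X also had the highest share of sequence covered among these 5 chromosomes. Combined regions covered 3.88% of X against 2.84 to 3.51% of II to V, replicate 1 regions 2.31% against 1.72 to 1.96%, and replicate 2 regions 2.57% against 1.91 to 2.40% (exact permutation p = 0.2 each). The end of the last region in any of the lists stood for the length of a chromosome, 17714629 bp for X. Chromosome I, which the comparison leaves out, held 110.2 combined regions per Mb and 4.15% covered sequence, both above X.

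Neighbouring regions on X lay closer together than on each of II to V, by a small margin. On chromosome I, which the comparison leaves out, the median gap was shorter, 3722 bp in the combined list. The median gap between combined X regions was 5348.5 bp (interquartile range 1515.5 to 16527), against medians of 5897 to 6732.5 bp over II to V (exact permutation p = 0.2, adjusted exact p = 0.467). In replicate 1 it was 10782 bp against 11381 to 12680 bp, and in replicate 2 it was 8665 bp against 9193 to 11213 bp (exact permutation p = 0.4 for each). Short gaps were about as common as elsewhere: 418 of the 1394 X gaps (30.0%) were 2000 bp or less, against 26.5 to 29.8% over II to V. Gaps over 50000 bp made up 3.87% on X, inside the autosomal range of 3.58 to 6.87%. At 10000 bp or less the shares were 63.2% on X and 59.1 to 60.8% over II to V, and the plot of gap sizes shows X apart from the others at such middle distances. In each deposited list the smallest gap on any chromosome was 200 or 201 bp.

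**Figure D5:**
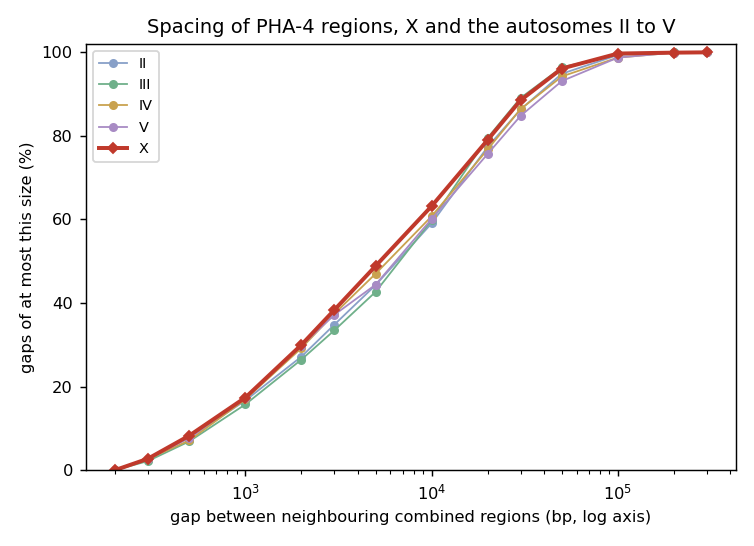
Share of gaps between neighbouring combined regions that are at most a given size (bp, logarithmic axis), for X and II to V. At 5000 bp the share is 48.9% on X and 42.7 to 47.0% on the autosomes, and the lines meet at both ends.

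Gaps over 50000 bp were few on X (3.87%), but its longest gap exceeded those of II, III and IV (153341, 144794 and 202647 bp). On V the longest was 273107 bp. The longest on X ran from 59369 to 313000, 253632 bp near the left end, and both replicate lists held 0 regions in it. To its left lay 2 combined regions, of 160 and 175 bp, that were absent from both replicate lists, so the replicate lists held nothing on X before 313013. The next gaps were at 1662452 to 1845497 (183046 bp) and at 7341230 to 7456798 (115569 bp), again with 0 regions in either replicate list. The first of the 3 lies in the first bin and the second in the second bin, the emptiest bins of X.

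Dense stretches, defined as runs of at least 5 combined regions with gaps of at most 2000 bp, were found at 15 places on X. They held 80 regions, 5.73% of those on X, against 5.89% of all combined regions and 2.63 to 7.34% over II to V (exact permutation p = 0.8). The largest runs on X held 6 regions each, and 5 stretches tied at this number. On the autosomes the largest run held 11, on V. The stretch at 6737207 to 6751491 was the longest on X, 14285 bp, of which 74.7% was covered. It contained the widest X region and the strong region at 6749010, and held 5 replicate 1 and 7 replicate 2 regions. The stretch at 10765185 to 10773048 (7864 bp, 70.7% covered) was the most uniformly strong: all 6 of its regions overlapped both replicates and 5 fell in the strongest score group. The other 3 lay at 9539238 to 9545821, 10683456 to 10690329 and 5116318 to 5123240, with 3 regions each in both replicates. The last of them held 0 regions of the strongest group.

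Crowded X regions were on the whole stronger than solitary ones. Of the 432 regions with a neighbour within 1 kb, 46.5% (exact interval 41.7 to 51.4) overlapped both replicates, against 42.0% (38.4 to 45.6) of the 750 with the nearest at 1 to 10 kb and 37.1% (30.6 to 44.0) of the 213 beyond 10 kb. Median q-values were 7.99e-06, 1.40e-05 and 1.01e-04, and median widths 428, 386 and 370 bp. The same order of shares was found on each of II to V, so it was not particular to X. Intervals of neighbouring classes overlapped, and regions in a cluster are not independent of each other. Inside the 15 dense stretches 17 of 80 regions (21.3%) were 1 kb or wider, against 82 of 1315 (6.24%) outside. Wide regions in dense stretches were not counted on II to V, so whether this was particular to X was not tested. Of the 321 X regions in the strongest score group 24 (7.48%) lay in a dense stretch, and 179 (55.8%) had a neighbour within 2000 bp. In the weakest group 16 of 386 (4.15%) lay in one and 166 (43.0%) had such a neighbour. The fall from the strongest group to the weakest was not steady. Counted from the strongest, group 2 had shares of 5.20% and 48.0%, below the 6.37% and 51.2% of group 3. Shares by score group were not counted on II to V, so whether this was particular to X was not tested.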

How the data were processed

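Chromatin was crosslinked, sonicated and precipitated with antibodies against GFP, per the labels' protocols. Per the file headers the build is WormBase WS190, and per the source field the caller was PeakSeq. The authors deposited 3 lists with 1 q-value a region, none above 0.00998. Not given in the sources used here are PeakSeq's settings, the aligner, the way replicates were joined and which input served which list. Replicate 2 has 2 extractions, so each list was used as deposited and not as a sample mean.

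Overlap meant at least 1 shared bp; counts matched bedtools 2.31.1, and the code was tested on simulated data. Coordinates are 1-based. X was compared with II to V by a two-sided exact permutation test over 5 chromosomes (X minus the autosomal mean), with Benjamini-Hochberg adjustment over the 7 main tests; further measures carry unadjusted p. No test treats regions as replicates. Members, lists and tests were chosen with earlier results of these data known. Regions named are the 15 strongest replicated on X, the 3 widest, the stretches with most regions (5 tied), the 3 longest gaps, the 3 fullest and emptiest bins, and the 3 strongest per replicate without a partner. Other bins named were chosen after their values were seen. Genes, sequence and motifs need a WS190 genome or annotation and were not analysed here. Python 3.11.15, numpy 2.4.6, pandas 2.3.3, scipy 1.17.1 and matplotlib 3.10.9 were used.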

Additional observations from a re-analysis of the deposited data

How the results depend on the processing

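Of 51 alternatives to the 7 main comparisons of X with II to V, 45 kept the direction of X minus the autosomal mean. As no comparison could reach 0.05, direction alone was judged. Median width on X stayed above, and the variance-to-mean ratio below, the autosomal range in all 8 and 10 alternatives tried for them; of these the best-scored 50% of regions and bins shifted by 0.5 Mb were added after the data were seen. X density and the median gap kept their direction in 7 of 7 each, but X lay inside the autosomal range in 4 of 7 for density (q of 1e-05 or lower, without replicate 2, regions in both lists, chromosome I included) and in 3 of 7 for the gap (the same apart from leaving out replicate 2). The share of regions in both replicates, -0.203 percentage points from the autosomal mean, reversed to 3.38 points above it at q of 1e-05 or lower and 1.23 points above it with I included. The share in dense stretches, 0.845 points above the mean, reversed to -0.729 at q of 1e-05 or lower, -0.303 with regions within 500 bp merged and -0.250 among regions in both replicate lists. For it, leaving out a replicate by taking only the other's list gave -1.20 to 0.606 points (-1.20 without replicate 2). The causes were not tested. No paired analysis was possible because the lists hold no values per library. Unknown depth limits any reading of regions missing from 1 list.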
